A study of Homo sapiens with 7 samples.

Results

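The clustered histone genes were taken as the genes whose current symbol is H1-1 to H1-6 or begins with H2AC, H2BC, H3C or H4C followed by a number, named HIST1 to HIST4 in older annotation. Each was measured by its brightest probe set that lists no other gene, and 42 of the 19775 genes measured in this way met the rule. The gene table held 69 such histone genes, and the other 27 had no probe set of their own. The cells were HSC-3, an established human line from an oral squamous cell carcinoma, and no genetic change or drug is named for any group. The untreated control stayed at 37 °C. The other cultures spent 90 min at 42 °C or at 44 °C and were taken either directly (0 h) or after a return to 37 °C for 6 or 12 h. RNA of each of these 7 conditions went onto 1 Affymetrix U133 Plus 2.0 array. With 1 array per condition, a difference between 2 conditions has no replicate check and no p-value. The one test made compares 44 °C with 42 °C over the 3 times together.

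Core histones H2A, H2B, H3 and H4 form the protein spool on which DNA is wound, and linker histone H1 binds where DNA enters and leaves it. Each is encoded by many near-identical, mostly intronless genes that lie in clusters and are transcribed mainly in S phase, when new chromatin is built. Their messenger RNAs usually end in a stem-loop in place of a poly(A) tail. The stem-loop is bound by SLBP and cut with the help of the U7 ribonucleoprotein, and the mature RNA is degraded quickly when DNA synthesis stops. Polyadenylated forms of some of these RNAs are also known. One-cycle labelling kits of the kind named in the labels start from an oligo-dT primer, so these arrays read mainly RNA that carries a poly(A) tail, and the share of histone RNA that does so was not measured.

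Promoter stretches of 3 genes are shown because these genes behaved differently: H2AC17 and H2BC9 rose after 44 °C and H2BC12 did not pass 2-fold on any array. Each line gives the 250 bases before the transcription start in the GRCh38.p14 assembly, from RefSeq, 5′ to 3′ on the strand of the gene. They lie on chromosome 6 at chr6:27893186-27893435 (minus strand) for H2AC17, chr6:26251364-26251613 (plus strand) for H2BC9 and chr6:27146859-27147108 (minus strand) for the first of the H2BC12 starts. Capitals mark the octamer ATTTGCAT, CCAAT and TATAAA, on either strand, so that ATTGG is CCAAT read on the opposite strand and neighbouring matches can overlap.
H2AC17: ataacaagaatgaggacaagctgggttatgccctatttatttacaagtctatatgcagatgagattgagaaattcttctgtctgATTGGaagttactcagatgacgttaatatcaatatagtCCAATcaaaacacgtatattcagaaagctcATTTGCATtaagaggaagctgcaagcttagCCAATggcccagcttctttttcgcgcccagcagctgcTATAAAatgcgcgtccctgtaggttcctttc
H2BC9: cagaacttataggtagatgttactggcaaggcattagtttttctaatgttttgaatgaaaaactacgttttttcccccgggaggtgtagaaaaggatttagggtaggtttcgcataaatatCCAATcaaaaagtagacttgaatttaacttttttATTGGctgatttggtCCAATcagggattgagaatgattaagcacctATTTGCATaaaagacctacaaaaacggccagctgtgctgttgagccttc
H2BC12: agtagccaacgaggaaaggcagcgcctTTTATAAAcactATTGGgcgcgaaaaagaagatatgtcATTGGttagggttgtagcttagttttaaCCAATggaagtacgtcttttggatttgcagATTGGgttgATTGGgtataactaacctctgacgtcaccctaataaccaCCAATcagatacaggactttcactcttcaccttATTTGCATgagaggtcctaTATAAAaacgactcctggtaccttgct
All 3 stretches hold 1 octamer, the element bound by POU2F1 (Oct-1). Its last base lies 90 bases before the start in H2AC17, 41 in H2BC9 and 38 in H2BC12. H2AC17 and H2BC9 hold 3 CCAAT elements each and H2BC12 holds 6. TATAAA occurs once in H2AC17, not in H2BC9, and at 3 places in H2BC12 counting both strands.

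A window was found for 40 of the 42 genes, 38 of them on chromosome 6 and 2 on chromosome 1, and H3C11 and H4C1 had none. The octamer occurred in 16 of these 40, against 1.63% of all 35116 windows of the same length. It was found in 6 of 8 H2A and 10 of 13 H2B genes and in none of the H1, H3 or H4 genes. CCAAT was present in 35 of 40 (32% of all windows) and TATAAA in 27 of 40 (10.7%). The paired heat shock element letters GAANNTTC were found before H3C2 and H3C7 (5.78% of all windows), and TTCNNGAA before H1-5, H2AC16, H3C2, H3C6 and H4C13 (6.62%). The same letters followed by NNGAA, a triple element, matched none of the 40 (0.441% of all windows). Each share counts letters on either strand and shows no binding.

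The arrays differed in level. The median over all probe sets was 32.1 on the 44 °C, 0 h array and 18.7 to 22.4 on the other 6. The lower quartile was 8.26 at 44 °C, 0 h and 4.46 to 5.64 elsewhere. Values under 21.35, the pooled median of all arrays, were therefore set to that floor, and the words rose and fell are used for a move of at least 1 log2 unit (2-fold) on each of 3 scales. These are the deposited values, their quantile normalized form, and the values of each array after a median shift. That shift removes the median log2 difference from the control over the probe sets that reach the floor on each array. Of 5 heat shock genes (HSPA6, DNAJB1, BAG3, HSPB1 and HSPH1), 5, 3 and 1 rose at 0, 6 and 12 h after 42 °C and 2, 3 and 4 after 44 °C. At 44 °C, 0 h these were HSPA6 and DNAJB1, an HSP40 cochaperone that read 881.5 in the control and 9949 and 7110 at 0 h after 42 °C and 44 °C. Of 6 measured keratinocyte markers, 5 reached 4 times the floor on each array, with sums of 37061 to 51323. Summed fibroblast markers read 199.9 to 397, mostly from COL1A1, and LUM was under the floor on all arrays. Leukocyte and endothelial sums were at most 38.3 and 83.5, with PTPRC, LYZ, VWF, CDH5 and KDR always under the floor. The log2 signal of the 3′ over the 5′ control probe sets was 0.25 to 0.37 for ACTB and -0.19 to -0.01 for GAPDH over the 7 arrays.

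Of the 42 histone genes, 39 reached the floor on at least 1 array and 3 never did (H1-3, H2BC1 and H2BC13). Those 39 were 5 of 6 H1 genes, all 8 H2A, 11 of 13 H2B, all 7 H3 and all 8 H4 genes. In the control, 26 were at or above the floor and 13 were below it. H1-1, H1-4, H2AC15, H2BC11, H3C1, H4C1 and H4C13 reached the floor on a 44 °C array only, with highest values of 28.4 to 91.1. On each of the 7 arrays 18 genes reached the floor, and 20 reached 4 times the floor (85.4) on some array. Of the 39, 10 were read by a probe set whose name ends in _x_at or _s_at, a type that can also pick up related transcripts.

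**Figure D1:**
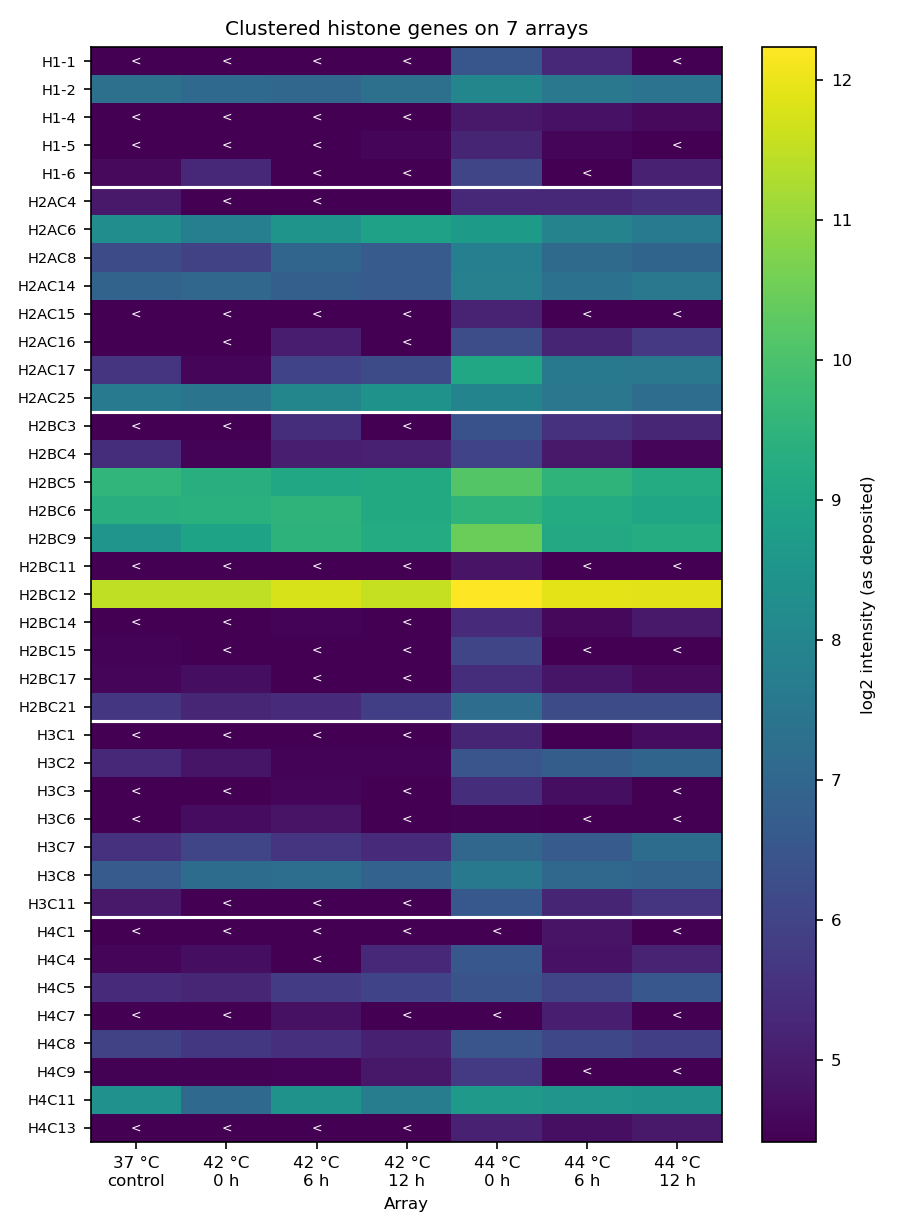
Log2 intensity of the 39 histone genes that reach the floor (rows, grouped as H1, H2A, H2B, H3 and H4) on the 7 arrays (columns); < marks a value under the floor of 21.35, drawn at the floor. The 44 °C, 0 h column is the highest of its row for 29 of 39 genes as deposited, on an array that is the highest for 51.3% of all genes.

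After heat at 42 °C few histone genes rose or fell, as was so for all genes. At 0 h none rose (1.46% of all genes reaching the floor did) and H4C11 fell (3.09% of all genes did). At 6 h none rose (background 1.51%) or fell (1.92%), and at 12 h none rose (0.968%) or fell (1.33%). These counts lie near the background. With no floor they were higher, as given further below without a share of all genes. All comparisons with the control share its 1 array. The median difference from the control among the 18 genes measured on all arrays was -0.20, 0.14 and 0.03 log2 units at 0, 6 and 12 h as deposited, beside -0.12, 0.25 and 0.20 over the 10151 genes measured on all arrays. Values of the 42 °C and of the 44 °C arrays are given below in the order 0, 6 and 12 h.

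H4C11, a gene for histone H4, read 332.6 in the control, 136.9, 342.5 and 212.0 after 42 °C, and 396.1, 363.7 and 340.5 after 44 °C. It was low at 0 h and intermediate at 12 h after 42 °C and near the control on the other 4 arrays. It fell 2.43-fold at 42 °C, 0 h. Its probe set is of the _x_at type, which can also pick up related transcripts, and leaving out such probe sets left 0 genes that fell there.

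H2AC17, which encodes an H2A protein, also read low at 42 °C, 0 h. It stood at 49.1 in the control, 23.0, 62.9 and 73.0 after 42 °C, and 534.5, 192.5 and 186.2 after 44 °C. The 42 °C, 0 h value was 1.09 log2 units under the control as deposited and passed no call on all scales. Between 0 and 6 h after 42 °C it rose 2.74-fold, from a value close to the floor. It was 1 of 39 to rise (3.77% of all genes rose), and 0 fell (1.04%). Both counts lie near the background.

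At 44 °C, 0 h, 11 of 39 histone genes rose, against 2.06% of all genes, and 0 fell (0.668%). H2AC17 rose 10.9-fold, H4C4 4.04-fold, H2BC9 4.0-fold and H2AC8 3.03-fold. By class, the risen genes were 1 of 5 H1, 3 of 8 H2A, 4 of 11 H2B, 2 of 7 H3 and 1 of 8 H4 genes. In a bulk sample, a larger share of cells that hold an RNA and more of it per cell cannot be told apart. The array with this result also had the highest level, whose part in the result was not tested beyond the 3 scales.

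The 39 include 7 genes that reached the floor on a 44 °C array only, H1-1 among them. With the floor applied, these could not fall as deposited. Of the 18 histone genes that reached the floor on all arrays, 5 rose (1.6% of all such genes). With the floor raised to 4 times its value, 2 of the 11 rose, H2AC17 and H2BC9. The nearest gene inside the threshold was H3C7, with 1.06 log2 units on its lowest scale, and the nearest outside was H1-6, with 0.98.

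Of the H2A genes, H2AC17 was 1 of the 11 and its 44 °C values at all 3 times lay above those of the other 4 arrays. H2AC8 read 73.4 in the control, 62.2, 125.4 and 101.5 after 42 °C and 222.7, 140.3 and 123.3 after 44 °C. Its 44 °C, 12 h value lay just under its 42 °C, 6 h value. H2AC16, close to the floor in the control, read 21.5, then 18.8, 32.4 and 19.9, then 76.2, 37.1 and 52.9. It rose 3.54-fold at 0 h, and all 3 of its 44 °C values lay above the other 4.

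Other H2A genes did not pass. H2AC14 read 118.8 in the control, 127.9, 110.1 and 100.2 after 42 °C and 228.2, 165.8 and 188.2 after 44 °C, so its 44 °C arrays were the 3 highest although no comparison with the control reached 2-fold on all scales. H2AC6 read 303.8, then 223.0, 352.1 and 478.0, then 406.0, 243.0 and 193.3, and was highest at 42 °C, 12 h. H2AC25 from the HIST3 cluster read 194.6, then 170.3, 259.1 and 336.0, then 247.8, 184.5 and 147.8. On these probe sets both H2AC6 and H2AC25 read lowest at 44 °C, 12 h. There the deposited difference from 42 °C, 12 h was -1.31 and -1.18 log2 units but -0.66 and -0.55 after quantile normalization. The other probe set of H2AC25, of the _x_at type, took another course. It read 42.3, then 2.84, 4.48 and 0.907, then 29.1, 22.8 and 13.4, and was lowest at 42 °C, 12 h.

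**Figure D2:**
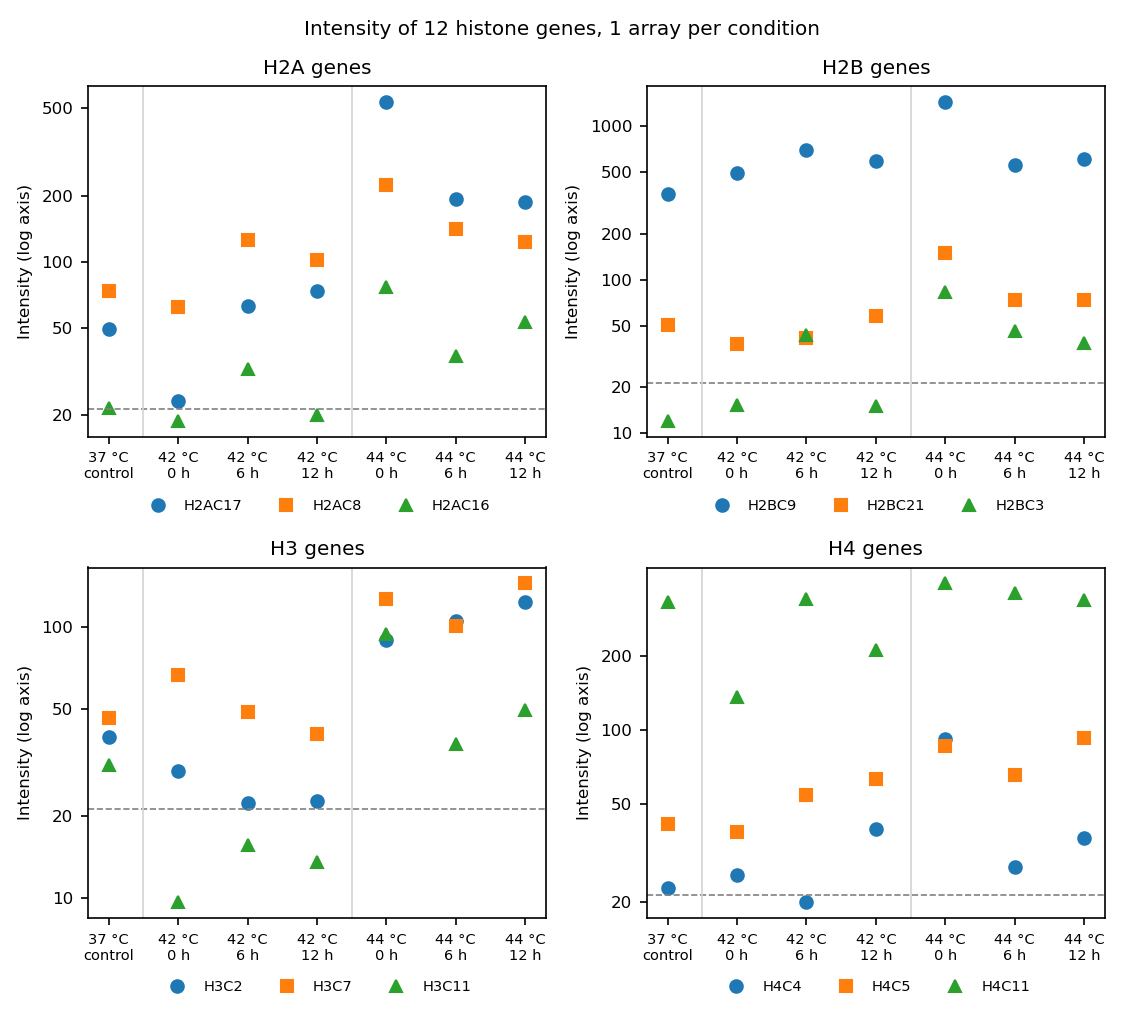
Deposited intensity (log axis) of 12 histone genes in 4 panels by class on the 7 arrays, 1 point per array; the dashed line is the floor of 21.35. H2AC17 stands at 534.5 at 44 °C, 0 h and 23.0 at 42 °C, 0 h, while H3C2 and H3C7 stay high to 12 h after 44 °C at 123.3 and 145.0.

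Among H2B genes, H2BC9 read 360.0 in the control, 492.2, 703.5 and 593.4 after 42 °C, and 1438, 560.3 and 614.2 after 44 °C. It was high on the 44 °C, 0 h array alone, and by 6 h it lay among the 42 °C values. H2BC21 of the HIST2 cluster read 50.7, then 38.1, 41.8 and 58.3, then 149.0, 73.6 and 74.3, and rose 2.94-fold at 0 h. Its 3 values after 44 °C were above all the others.

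H2BC3 rose from a value under the floor and H2BC15 from one just above it. H2BC3 read 12.1, then 15.2, 43.5 and 15.1, then 83.1, 46.7 and 38.5, which makes it at least 3.89-fold higher at 44 °C, 0 h. H2BC15 read 22.3, then 6.93, 15.4 and 9.40, then 66.2, 16.4 and 13.8, a 2.96-fold rise on 1 array that had gone by 6 h. H2BC3 was also above the control at 42 °C, 6 h, where it did not pass on all scales.

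H2BC12, H2BC5 and H2BC6 were far above the floor on all arrays and passed no call. H2BC12 read 2880 in the control, 2887, 3483 and 2998 after 42 °C, and 4821, 3866 and 3795 after 44 °C, 1.67-fold above the control at 0 h. H2BC5 read 757.7, then 656.5, 551.0 and 577.3, then 1139, 724.4 and 603.1, and its other probe set of its own went from 565.5 in the control to 1170.0 at 44 °C, 0 h. H2BC6 read 638.9, then 669.7, 732.0 and 574.7, then 730.3, 594.9 and 522.3, a narrow range in which the control lay in the middle. H2BC5, H2BC6 and H2BC9 are each read by an _x_at probe set, and of these H2BC9 passed at 44 °C, 0 h.

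The linker histone genes gave 1 rise. H1-1 read 8.48 in the control, 1.72, 9.32 and 2.27 after 42 °C, and 91.1, 38.9 and 6.51 after 44 °C, so it was under the floor on 5 arrays and at least 4.26-fold higher at 44 °C, 0 h. H1-2 read 156.5, then 136.6, 126.5 and 156.2, then 259.0, 188.5 and 168.0. It was 1.65-fold above the control at 44 °C, 0 h as deposited and 0.33 log2 units above it after the median shift. H1-4, H1-5 and H1-6, at 31.1, 37.5 and 66.8 on that array, did not pass.

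Among H3 genes, H3C7 and H3C2 were higher than the control both at 6 and at 12 h after 44 °C. H3C7 read 46.1 in the control, 66.4, 48.5 and 40.3 after 42 °C, and 126.6, 100.6 and 145.0 after 44 °C. H3C2 read 39.4, then 29.3, 22.3 and 22.7, then 89.8, 105.4 and 123.3. All 3 values after 44 °C were above the other 4 for both genes, and at 12 h H3C7 was 3.15-fold and H3C2 3.13-fold higher than the control.

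H3C11 and H3C8 followed another course. H3C11 read 30.9, then 9.63, 15.7 and 13.6, then 94.1, 37.1 and 49.3, and rose 3.04-fold at 44 °C, 0 h. It was under the floor on all 42 °C arrays. H3C8 read 100.2, then 145.3, 151.2 and 118.5, then 189.9, 132.0 and 119.9, and passed no call. The dim genes H3C1, H3C3 and H3C6 had highest values of 37.2, 43.3 and 28.4.

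Among H4 genes, H4C4 read 22.9 in the control, 25.9, 20.0 and 39.8 after 42 °C, and 92.5, 27.8 and 36.5 after 44 °C, high on the 44 °C, 0 h array alone. H4C5 read 41.6, then 38.6, 54.8 and 63.4, then 86.0, 65.8 and 93.1, and its 3 values after 44 °C were the highest. It rose 2.24-fold at 12 h. H4C8 read 61.8, then 51.1, 44.0 and 34.2, then 90.0, 69.5 and 58.3, and was lowest at 42 °C, 12 h on both of its probe sets. H4C1, H4C7, H4C9 and H4C13 had highest values of 28.4 to 53.1.

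After 6 h of recovery from 44 °C, 4 of 39 histone genes were higher than the control (1.49% of all genes) and 0 lower (2.62%). They were H2AC17 at 3.92-fold, H3C2 at 2.68-fold, H2BC3 at least 2.19-fold and H3C7 at 2.18-fold. Of the 18 genes on all arrays, 3 were higher (1.11% of all such genes) and 0 lower (2.41%). H3C7 was nearest inside the threshold with 1.13 log2 units on its lowest scale, and H2AC8 nearest outside with 0.93. With the floor at 4 times its value H2AC17 alone was left, and with no floor the count was 11. The 1.49% does not apply to these settings, for which no share of all genes is given.

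At 12 h after 44 °C, 5 of 39 were higher (1.7% of all genes) and 0 lower (3.52%). H2AC17 was 3.79-fold, H3C7 3.15-fold, H3C2 3.13-fold, H2AC16 2.46-fold and H4C5 2.24-fold above the control. On this array 4 of the 18 genes on all arrays were higher (1.07% of all such genes) and 0 lower (3.39%). This array read low as a whole, and on the quantile and median shift scales alone 12 and 11 histone genes were higher. A call on 1 scale is a looser rule, to which the 1.7% does not apply, and no share of all genes is given for it. With the floor at 4 times its value 1 gene was left, H2AC17, and with no floor 10 were higher. Nearest the threshold were H4C5, inside with 1.16, and H2BC3, outside with 0.85 log2 units.

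**Figure D3:**
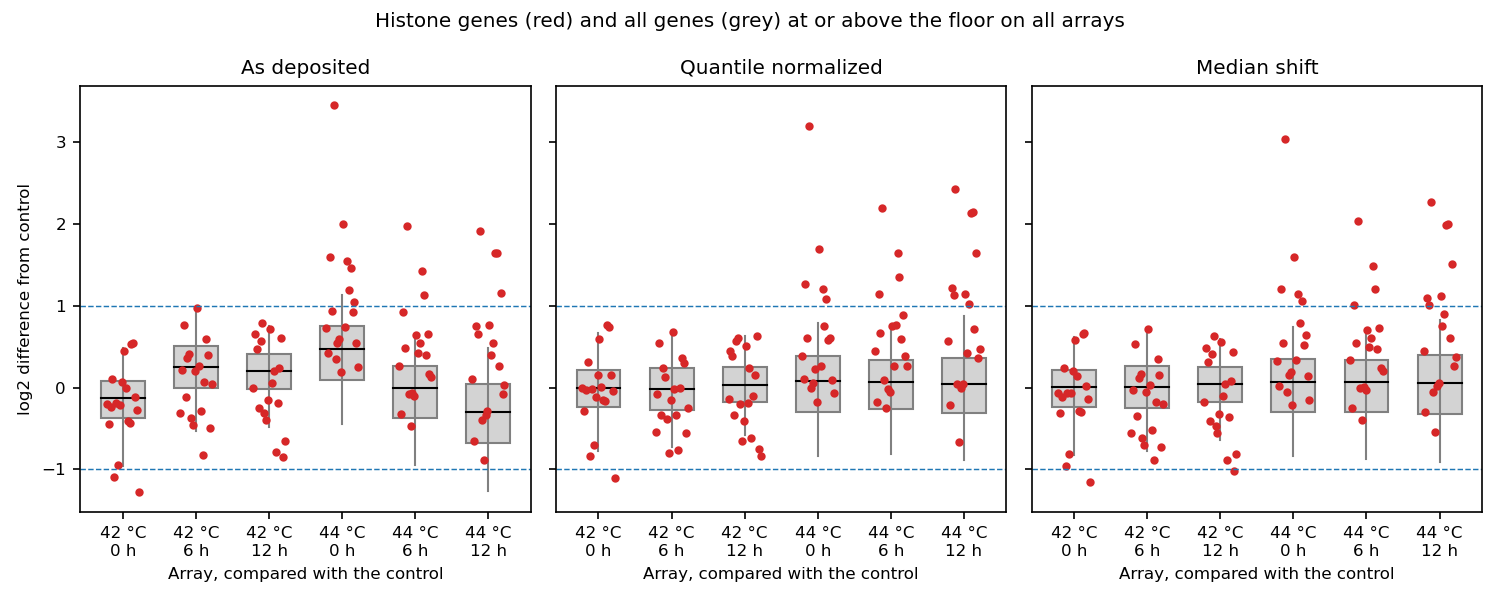
Log2 difference from the control of the 18 histone genes that reach the floor on each array (red points) beside the 10151 genes that meet the same condition (grey box, quartiles; black line, median; whiskers, 5th to 95th percentile), on 3 scales; dashed lines mark 2-fold. After 44 °C the histone points reach 3.45 log2 units (H2AC17 at 0 h), and their median is above that of all genes at each time on each scale.

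As a group, the 18 histone genes on all arrays had median differences of 0.83, 0.41 and 0.33 log2 units at 0, 6 and 12 h after 44 °C as deposited, beside 0.47, -0.01 and -0.30 over all 10151 genes. After quantile normalization these were 0.49, 0.52 and 0.65 for the histone genes and 0.08, 0.07 and 0.04 for all genes. After the median shift they were 0.43, 0.48 and 0.68, beside 0.07, 0.07 and 0.05. So the order of the 3 times depended on the scale, with 0 h the highest as deposited and 12 h the highest on the other 2. At 44 °C, 0 h all 18 lay above the control as deposited, as did 8106 of the 10151 genes, and 15 of 18 lay above it on all 3 scales, as did 5446 of the 10151.

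The array on which a gene was highest also changed with the scale. As deposited, 44 °C, 0 h was the highest array for 29 of 39 histone genes and for 51.3% of all genes. After quantile normalization it was so for 13 of 39 (17.1% of all genes) and 44 °C, 12 h for 12 (19.4%). After the median shift the counts were 18 (17.2%) and 14 (22.9%).

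The temperatures were also compared at the same time, which leaves the control array out. At 0 h, 10 of 39 histone genes were higher after 44 °C than after 42 °C (2.87% of all genes) and 0 lower (0.608%). The 7 genes that reached the floor on a 44 °C array only could not be lower as deposited. H1-1, 1 of the 10, is among them. Of the 18 genes on all arrays, 4 were higher (2.61% of all such genes) and 0 lower (0.552%). H2AC17 was 23.2-fold higher, at 534.5 against 23.0, H3C11 at least 4.40-fold, H2BC21 3.91-fold, H2AC8 3.58-fold and H4C4 3.57-fold. H2BC9 was just inside at 2.92-fold, with 1.01 log2 units on its lowest scale, and H4C11 just outside at 2.89-fold. As deposited alone, a looser rule, the count was 16, and with the floor at 4 times its value it was 2, H2AC17 and H2BC9. No share of all genes is given for these settings.

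At 6 h, 3 of 39 were higher after 44 °C (1.68% of all genes): H3C2 4.73-fold, H2AC17 3.06-fold and H3C7 2.07-fold. None was lower, where 4.45% of all genes were. At 12 h, 6 of 39 were higher (1.76%) and 0 lower (3.61%), and they were H3C2 at 5.43-fold, H3C7 at 3.60-fold, H2AC17 at 2.55-fold, H2AC16 and H3C11 at least 2.48-fold and 2.31-fold, and H2AC4 at 2.05-fold. Of the 18 genes on all arrays, 3 were higher at 6 h (1.25% of all such genes) and 0 lower (5.43%). For these 18 the 12 h counts were 3 higher (0.975%) and 0 lower (4.09%). Under other settings, for which no share of all genes is given, the 6 h count among the 39 became 6 after quantile normalization and 8 with no floor. The 12 h count became 12 on the quantile scale, on the median shift scale and with no floor, and 1 gene was left at both times with the floor at 4 times its value, H2AC17.

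The 3 times were then joined, with 44 °C against 42 °C fitted in limma on the 6 heated arrays and recovery time as a block. This fit has 2 residual degrees of freedom per gene, treats the temperature difference as the same at each time, and was chosen after the data were seen. Of the 14743 genes that reached the floor on a heated array, 0 passed an adjusted p of 0.05 on any of the 3 scales, histone genes included. The smallest adjusted p over all genes was 0.398 as deposited, 0.153 on the quantile scale and 0.169 on the median shift scale. At an unadjusted limma p under 0.05, 9 of 39 histone genes passed as deposited, 15 on the quantile scale and 19 on the median shift scale. Each of them was higher after 44 °C. The shares of all genes that passed, in either direction, were 6.08%, 20.2% and 19.9%. The share of all genes that passed and were higher after 44 °C is not given.

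H3C2, which encodes an H3 protein, was higher after 44 °C by 2.10 ± 0.27 log2 units (SE of the fit, 3 pairs of arrays) as deposited and by 2.02 ± 0.46 after quantile normalization, with adjusted limma p of 0.812 and 0.19. H3C11 was higher by 1.38 ± 0.34 and 1.40 ± 0.19 log2 units, with adjusted limma p of 0.812 and 0.153. These genes had the smallest unadjusted p of the 39 as deposited and on the quantile scale, respectively, and both were higher after 44 °C at each of the 3 times. The median over the 39 was 0.48, 0.46 and 0.52 log2 units on the 3 scales, beside 0.03, 0.04 and 0.08 over all 14743 genes. The 39 include 7 genes that reached the floor on a 44 °C array only. With the floor applied, their deposited difference could not be negative, so they can only raise this median. Of these, H1-4 and H4C13 also passed an unadjusted limma p under 0.05 on the median shift scale.

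During recovery from 44 °C, 4 of 39 fell between 0 and 6 h (1.21% of all genes) and 0 rose (0.22%). H4C4 fell 3.32-fold and H2AC17 2.78-fold, and H1-6 and H2BC15 fell at least 3.13-fold and 3.10-fold to values under the floor. Between 6 and 12 h, 0 rose (0.955%) and 0 fell (0.888%). After 42 °C the same was found between 6 and 12 h (0.975% of all genes rose and 0.915% fell).

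Many H2A and H2B genes lie head to head and share the stretch between their starts. RefSeq places 11 such pairs, with 194 to 248 bases between the starts, and in 4 of them both partners reached the floor. H2AC17, with its 10.9-fold rise at 44 °C, 0 h, is paired with H2BC17 (240 bases), which read 23.7 in the control, 26.3, 18.3 and 15.8 after 42 °C, and 43.7, 28.9 and 24.7 after 44 °C. H2BC17 was 1.84-fold higher at 44 °C, 0 h and did not pass. In the pair of H2AC15 and H2BC15 (194 bases), H2BC15 passed at 44 °C, 0 h and H2AC15, at 36.9 from a value under the floor, did not. In the pair of H2AC14 and H2BC14 (245 bases) neither passed, with 228.2 and 41.5 on that array. In the pair of H2BC4 and H2AC6 (246 bases) neither passed, with 63.2 and 406.0. Partners thus had separate calls in 2 of the 4 pairs. In both, the partner that did not pass was also above the control as deposited, H2BC17 by 1.84-fold and H2AC15 by at least 1.73-fold. As deposited, 8106 of the 10151 genes on all arrays were also above the control at 44 °C, 0 h. On the quantile scale H2BC17 was 0.38 and H2AC15 at least 0.2 log2 units above the control. The median shift scale gave 0.48 and at least 0.39. No partner in these 2 pairs lay under the control, but the rises differed in size, 10.9-fold for H2AC17 beside 1.84-fold for H2BC17. What separates the calls within a pair was not tested. The other probe set of H2AC15 was under the floor on all arrays, at most 13.0.

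Promoter letters were set beside the calls as a description. Of the 13 genes that rose on any 44 °C array, 12 had a window, and the octamer was present in 6, CCAAT in 10 and TATAAA in 8 of them. Among the 25 other measured genes with a window the numbers were 9, 22 and 16. GAANNTTC was present in 2 of the 12 and 0 of the 25, and TTCNNGAA in 2 of the 12 and 3 of the 25.

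Genes that act on histone genes and their RNA were examined as lists, with calls against the control as above. Among 11 measured genes of histone transcription, NPAT, the coactivator that cyclin E and CDK2 switch on for histone genes, read 277.4 in the control, 126.3, 334.8 and 292.9 after 42 °C, and 243.7, 114.2 and 98.2 after 44 °C. It fell 2.43-fold and 2.83-fold at 6 and 12 h after 44 °C, the same arrays on which H2AC17, H3C2 and H3C7 stood above the control. CCNE2, a cyclin E, read 867.6, then 384.3, 774.0 and 543.9, then 859.8, 620.5 and 468.3, and fell 2.26-fold at 42 °C, 0 h. HINFP, a transcription factor of H4 genes, rose 2.21-fold there, from 66.2 to 146.4, on the array where H4C11 fell. No other gene of the list passed. Each of these calls is 1 gene of 11, beside 1.46% to 3.52% of all genes in the same comparison and direction, and is not read as a trait of the list. NFYA, a CCAAT-binding subunit, read 199.5 in the control and 94.2 at 42 °C, 0 h.

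Among 19 genes of histone RNA 3′ ends and decay, LSM11, a part of the U7 ribonucleoprotein, read 235.8, then 77.2, 309.8 and 250.6, then 310.2, 136.6 and 94.3. LSM11 fell 3.05-fold at 42 °C, 0 h and was the only one of the 19 to pass against the control. On that array 3.09% of all genes fell, so this count lies near the background. SLBP read 1943, then 1474, 1883 and 1861, then 1652, 1792 and 1342, and passed on no array. SRRT (ARS2), a cap-binding complex partner, read 1816 in the control and 3797 at 44 °C, 0 h, and CSTF2T, a cleavage factor, read 227.4 and fell short of a call at 89.9 at 44 °C, 12 h.

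**Figure D4:**
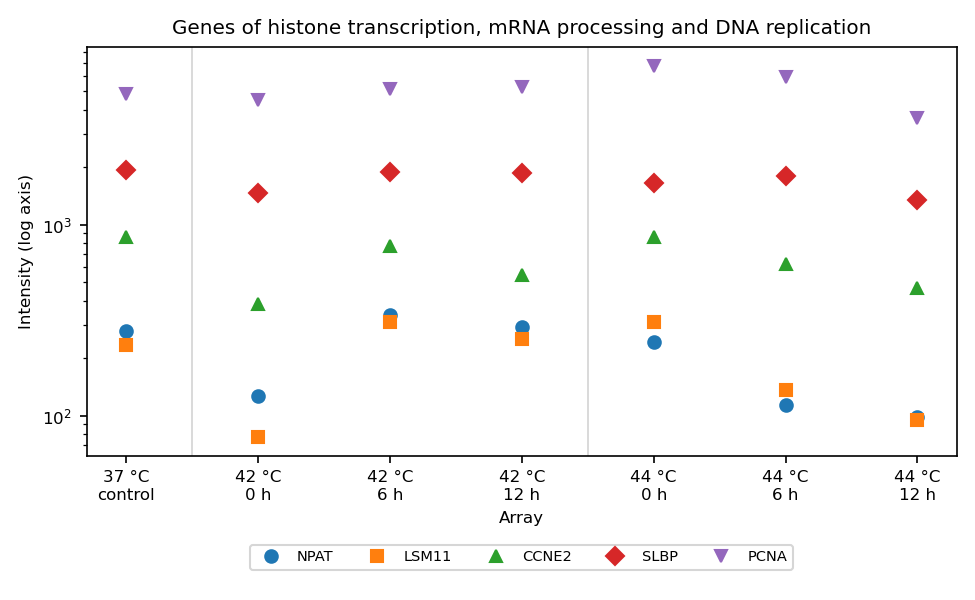
Deposited intensity (log axis) of NPAT, LSM11, CCNE2, SLBP and PCNA on the 7 arrays, 1 point per array. NPAT, LSM11 and CCNE2 are low at 42 °C, 0 h (126.3, 77.2 and 384.3), and NPAT is low again at 6 and 12 h after 44 °C (114.2 and 98.2).

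Of 27 measured S phase genes, 0 rose on any heated array and FEN1, a flap endonuclease, fell 2.71-fold at 44 °C, 12 h, from 2577 to 952.4. These counts lie near the background. At 44 °C, 0 h 25 of the 27 were above the control as deposited and 19 on all 3 scales. Of the 10151 genes on all arrays, 8106 and 5446 were so. PCNA, the sliding clamp of DNA polymerases, read 4860 in the control, 4491, 5157 and 5271 after 42 °C, and 6822, 5910 and 3607 after 44 °C. The median difference of the 27 at 44 °C, 0 h, 6 h and 12 h was 0.62, 0.18 and -0.35 log2 units as deposited and 0.18, 0.07 and -0.10 after quantile normalization. Over the 10151 genes on all arrays it was 0.47, -0.01 and -0.30 as deposited and 0.08, 0.07 and 0.04 after quantile normalization. Of 15 mitotic genes 0 passed against the control, which is near the background, with medians of 0.27, -0.11 and -0.53 on the same arrays as deposited.

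Variant histones, which mostly lie outside the clusters and are mostly made with poly(A) tails throughout the cell cycle, gave 1 rise among 9 measured. MACROH2A2, a variant with a large extra domain, went from 151.9 to 410.6 at 44 °C, 0 h (2.70-fold). On that array 2.06% of all genes rose, and 1 gene of 9 is not read as a trait of the list. H2AX, which is phosphorylated at DNA breaks, read 2289, then 2492, 3402 and 2567, then 3704, 2430 and 1556. H2AZ1 read 9999, then 10120, 11630 and 10972, then 12774, 11100 and 9674, and neither passed. H1-10, a linker variant, read 446.9 in the control and 987.0 at 44 °C, 0 h, which did not pass on all scales.

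Of 25 histone chaperones 1 passed against the control, at 42 °C, 0 h, where 3.09% of all genes fell, so this count lies near the background. HJURP, the chaperone of the centromeric variant CENP-A, read 897.9, then 315.6, 1817 and 979.6, then 1208, 796.5 and 611.2, and fell 2.84-fold at 42 °C, 0 h. SSRP1, of the FACT complex, read 1450.0 in the control and 3000 at 44 °C, 0 h, 1.05 log2 units as deposited and 0.61 after quantile normalization.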

How the data were processed

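Labelling used 5 µg of RNA and a one-cycle kit, per the labels, with 1 array per condition. The authors deposited linear probe set intensity values for 54675 probe sets; how they were summarised is not stated in the labels or headers. Values were taken as log2 with a floor of 21.35 (the pooled median). The median shift used the 20902 probe sets that reach the floor on each array. Platform annotation named the probe sets (41097 with 1 gene, 1801 with several, 11777 not listed), and symbols were updated with the RefSeq gene table. One probe set stood for each gene, the single-gene one with the highest mean log2, and 14973 genes reached the floor on any array. Backgrounds are shares of these. The temperatures were compared over the 3 times with limma 3.58.1 in R 4.3.3 (lmFit and eBayes, Benjamini-Hochberg adjustment). Members, lists and tests were chosen with earlier results of these data known. Members reaching 4 times the floor are named; H2AC4, H2AC16, H2BC3, H2BC15, H1-6 and the divergent pairs were named after their values were seen. Files with columns of other samples numbered 0. The steps ran in Python 3.11.15, numpy 2.4.6 and pandas 2.3.3 and were tested on simulated data. The number of arrays limits the precision.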

Additional observations from a re-analysis of the deposited data

Results flagged for a closer look

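Probe sets that list several histone genes were outside the comparisons, since none of their genes can be named from them. There were 20 and 17 reached the floor. Against the control, 6 were higher and 0 lower at 44 °C, 0 h, 4 and 0 at 6 h, and 3 and 2 at 12 h. At 42 °C the counts were 0 and 1, 0 and 0, and 0 and 1. No share over all such probe sets is given. By the same rule, 2.06%, 1.49% and 1.7% of the single-gene background were higher after 44 °C, and 0.668%, 2.62% and 3.52% lower. Some of the 20 list the same genes as each other, so they are not 20 separate measurements. The following rose above the control array and are given as signal in data that the comparisons do not use.

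The probe set 210387_at, which lists 2 H2B genes, read 55.7 in the control, 35.2, 79.7 and 46.1 after 42 °C, and 1454, 455.2 and 382.8 after 44 °C at 0, 6 and 12 h. It was 26.1-fold, 8.17-fold and 6.87-fold higher after 44 °C. The probe set 215779_s_at lists the same 2 genes and was 10.5-fold, 4.40-fold and 2.88-fold higher. H2BC11, 1 of these 2 genes, read 28.4 on its own probe set at 44 °C, 0 h and was under the floor elsewhere. The probe set 208523_x_at, which lists 5 H2B genes, was 4.09-fold, 2.95-fold and 2.68-fold higher at the 3 times.

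Among the others, 214472_at, which lists 10 H3 genes with 1 H2A gene, was 8.69-fold higher at 44 °C, 0 h, at 314.9 against 36.2. The probe set 214522_x_at, with 1 H2A and 1 H3 gene, was 3.36-fold higher at 0 h. The probe set 214516_at, which lists 14 H4 genes, was 3.71-fold higher at 0 h and 2.50-fold at 6 h, at 83.5 and 56.2 against 22.5. It was under the floor on all 42 °C arrays.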

How the results depend on the processing

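With 1 array per condition there were no replicates to pair. The temperatures paired by recovery time were fitted with limma, chosen after seeing the data, and 0 of 39 genes passed on any scale. At an unadjusted limma p under 0.05, 9, 15 and 19 passed on the deposited, quantile and median shift scales. The shares of all genes, in either direction, were 6.08%, 20.2% and 19.9%. Alternatives were the values as deposited, quantile normalization or the median shift alone, the mean of a gene's probe sets, no floor, a floor 4 times as high and, chosen after seeing the data, no _x_at or _s_at probe sets. None of the 40 called member differences reversed. The cause of the changes below was not tested. Shares of all genes are given for the main rule only, so the counts under these alternatives have none beside them. Counts of risen genes as reported were 0, 0 and 0 at 42 °C and 11, 4 and 5 at 44 °C. With no floor these were 2, 4 and 3 at 42 °C and, at 6 and 12 h after 44 °C, 11 and 10. With the higher floor the 44 °C counts were 2, 1 and 1. The 42 °C, 6 h count was 1 as deposited, and the 44 °C, 12 h count was 12 on the quantile scale and 11 after the median shift. Counts of fallen genes as reported were 1, 0 and 0 at 42 °C and 0 on each 44 °C array. With no floor they were 5, 1 and 2 at 42 °C, and 1 and 3 at 0 and 12 h after 44 °C. With the mean of probe sets they were 2, 1 and 1 at 42 °C. The 42 °C, 0 h count was 2 as deposited and 0 without _x_at and _s_at probe sets, and the 42 °C, 12 h count was 1 after the median shift and 1 without those probe sets. For 44 °C against 42 °C, the counts higher (10, 3 and 6) were 18, 8 and 12 with no floor and 2, 1 and 1 with the higher floor. The 0 h count was 16 as deposited, the 6 h count 6 after quantile normalization, and the 12 h count 12 on the quantile scale and 12 after the median shift. The 12 h count lower (0) was 2 as deposited and 3 with no floor. Probe sets of the same gene differed from each other with a spread of 0.26 to 0.35 log2 units per comparison, and 19 of the 39 genes stayed under 4 times the floor.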

Other observations

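Of the probe sets that list several H4 genes, 214516_at alone was called higher than the control. The probe sets 207046_at and 208580_x_at passed no call, and 208026_at and 208181_at were under the floor on all arrays. The brightest one, 205967_at, was called lower on some arrays and was 1.09-fold above the control at 44 °C, 0 h. The probe set 205967_at, which lists 14 H4 genes, read 3836 in the control, 1629, 5413 and 1625 after 42 °C, and 4196, 1832 and 1277 after 44 °C. It was lower than the control at 42 °C, 0 h (2.36-fold) and 12 h (2.36-fold) and at 44 °C, 12 h (3.0-fold). H4C11, the H4 gene that fell at 42 °C, 0 h, read 212.0 at 42 °C, 12 h and 340.5 at 44 °C, 12 h, beside 332.6 in the control. The probe set 207156_at, which lists 6 H2A genes with H2AC17 and H2AC16 among them, read 77.7 in the control, 78.0 at 44 °C, 0 h and 29.6 at 44 °C, 12 h, a 2.63-fold fall, while H2AC17 on its own probe set was 3.79-fold higher there. Another probe set listing the same 6 genes, 214542_x_at, read 63.9, 157.2 and 94.2 on these arrays.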
